A study of Homo sapiens with 12 samples.

Results

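The chromatin that odd-numbered probes against the long non-coding RNA SLEAR brought down was compared with the chromatin that probes against lacZ brought down from the same cells. The comparison used 6 of the 12 samples of the series, those titled odd 1 to 3 and lacZ 1 to 3, chosen by title alone. All came from Jurkat, a long-established line of human leukaemic T cells, grown in RPMI-1640 with fetal bovine serum and, per the labels' protocols, stably expressing SLEAR. The lacZ group carried that expression too, so no group without it entered the comparison, and the labels do not say whether the cells came from 1 clone or from a pool. The replicates are not said to come from separate cultures, so a p-value here measures the spread between these libraries, which may be technical. Peak lists on chromosomes 1 to 22 and X held 453262 peaks in the 6 libraries together, with positions on the human genome build hg19.

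ChIRP (chromatin isolation by RNA purification) fixes RNA to the chromatin it touches and then captures the RNA with biotinylated DNA oligonucleotides that tile it. Probes are commonly numbered along the RNA and divided into an odd and an even pool, so that each pool can serve as a check on the other. Human cells make no lacZ RNA, so lacZ libraries serve as the background of the method, which is known to include DNA that pairs directly with an oligonucleotide or sticks to the beads. The question of the comparison is which stretches of chromatin gave a called peak with odd probes and none with these control probes. The lists hold no reads outside peaks, so a missing peak does not show that no chromatin came down.

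Libraries of the same label were alike in where their peaks lay. Over 2856 windows of 1 Mb, the correlation of log2 peak density was between 0.89 and 0.92 for pairs of odd lists and between 0.71 and 0.84 for pairs of lacZ lists. It was between 0.40 and 0.62 for an odd list with a lacZ list. These correlations are across windows of the same genome, which share mappability and copy number, and are a description. Read totals of the libraries are unknown. If the fold is (pileup + 1)/(background + 1), as MACS2 computes it, the lowest background of a peak was 1.13, 1.12 and 0.706 fragments in the odd and 1.0, 0.798 and 0.596 in the lacZ lists, with overlapping ranges. What the authors' fold was taken against is not given, so this is no measure of depth.

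Odd probes gave more peaks and more covered bases in most libraries, but the sets overlapped. On the chromosomes used, the odd lists held 66336, 105957 and 117145 peaks and the lacZ lists 46560, 90804 and 26460. The geometric mean was 1.95-fold higher in odd lists, or 0.96 on the log2 scale (two-sided exact permutation p = 0.2, where 3 against 3 cannot go below 0.1). LacZ replicate 2 stood above odd replicate 1, and lacZ replicate 3 was the lowest of the 6. Without lacZ replicate 3 the log2 difference was 0.53, and without odd replicate 3 it was 0.80.

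Peaks covered 30.4, 44.9 and 49.4 Mb in the odd lists and 21.8, 39.3 and 12.5 Mb in the lacZ lists. The log2 difference was 0.88 (exact permutation p = 0.2, two-sided). Here too only lacZ replicate 2 reached into the range of the odd lists. Neighbouring summits lay at a median distance of 27.7, 17.3 and 16.2 kb in odd lists and of 40.8, 21.0 and 72.3 kb in lacZ lists.

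**Figure D1:**
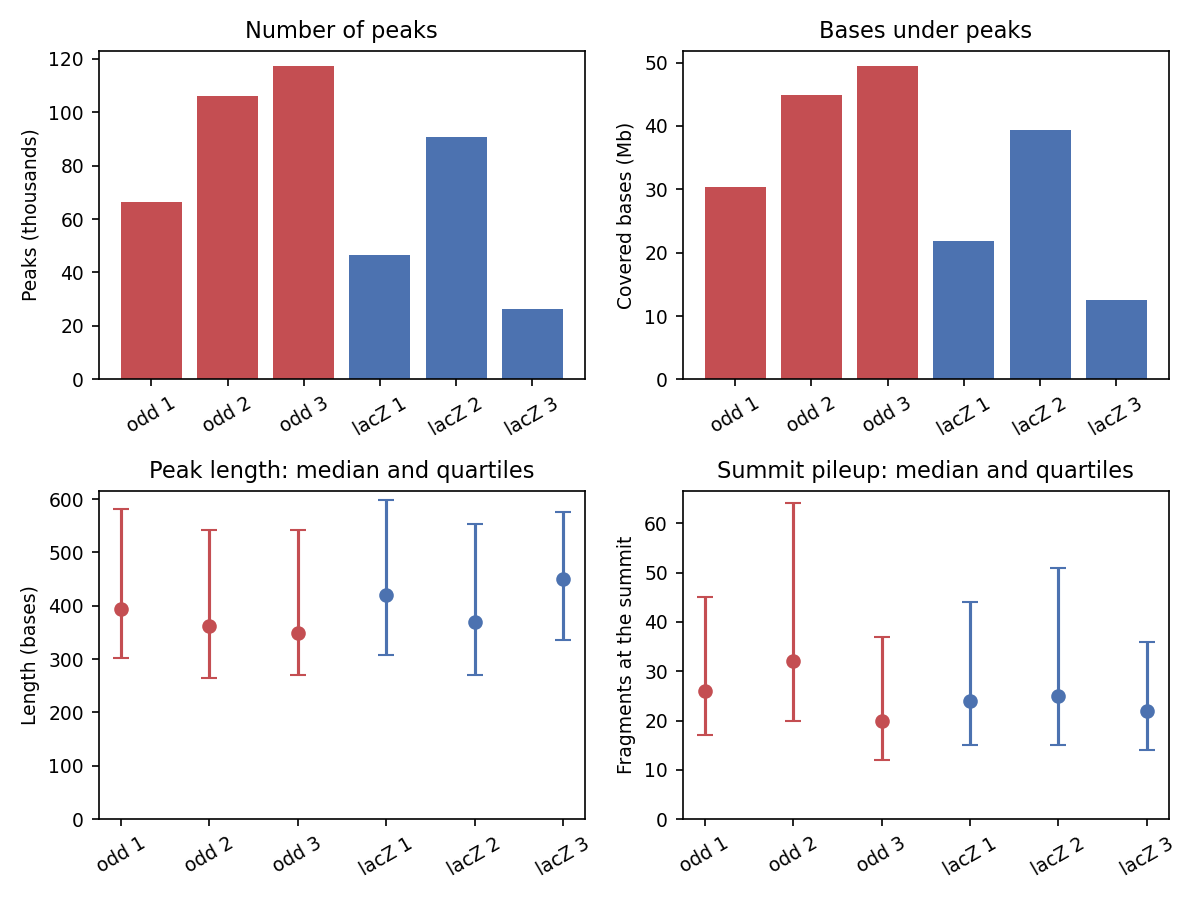
Number of peaks, covered bases (Mb), peak length (bases) and pileup at the summit (fragments) in each of the 3 odd (red) and 3 lacZ (blue) lists; bars are list totals, points are medians and whiskers run from the lower to the upper quartile. The odd lists hold 66336 to 117145 peaks and the lacZ lists 26460 to 90804, while lengths and pileups of the sets overlap.

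Over whole lists, the median odd peak was not longer than the median lacZ peak. The median length was 394, 362 and 348 bases in the odd lists and 420, 369 and 450 bases with lacZ probes, which on the log2 scale is -0.16 (exact permutation p = 0.2, two-sided). Among peaks whose fold enrichment, the authors' ratio of summit pileup to a background, was at least 10, this difference was -0.034. The order depended on the length of the lists. With every list held to its 26460 peaks of highest −log10 p, the medians were 606, 647 and 655 bases in odd lists. In lacZ lists they were then 564, 653 and 450, with lacZ replicate 2 among the odd lists. The lowest −log10 p kept ran from 3.51 in lacZ replicate 3, which was kept whole, to 75.9 in odd replicate 2. The shortest peak was between 215 and 276 bases in each of the 6 lists. Long peaks were few in both sets. Of odd peaks 0.886%, 0.848% and 0.818% were over 1 kb, against 0.694%, 0.773% and 0.465% of lacZ peaks, so every odd list stood above every lacZ list. The longest odd peaks, at 6689, 6779 and 6869 bases, were the same stretch of chromosome 4 in all 3 lists.

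Summit pileup, the number of fragments over the highest point of a peak, did not separate the sets. Its median was 26, 32 and 20 in the odd lists and 24, 25 and 22 with lacZ probes, on the log2 scale 0.11 apart (exact permutation p = 0.7, two-sided). The direction turned without odd replicate 2, to -0.052. It also turned when each median was divided by that lowest background of its list, to -0.19 (exact permutation p = 0.4, two-sided). Pileups are not scaled to depth, and the median summit lay near the middle of its peak in all lists, between 49.0% and 49.5% of the way along it.

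The highest pileups of the sets stood at different places, which were singled out after their values were seen. In all 3 odd lists the highest peak lay in a region on chromosome 16 from 46404755 to 46405831, on the long-arm side of the centromere, with 9338, 13562 and 9451 fragments and no lacZ peak. A second region, from 46392802 to 46393898, had 8665, 12646 and 8952 fragments in the odd lists and 948, 1374 and 658 in the lacZ lists. The third, from 46412691 to 46413518, had 4702, 7168 and 4852 and no lacZ peak. At the second site all 3 lacZ pileups were lower, on a scale not corrected for depth. The lacZ folds there were 1.72, 2.98 and 2.01, against 14.8, 21.2 and 22.9 in the odd lists. The authors' fold was moderate for such pileups, at 11.8, 16.5 and 19.0 in the odd lists at the first site, so the background there was high as well.

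In lacZ replicates 1 and 3 the highest peak lay on chromosome 19 from 27731927 to 27732438, also beside the centromere, with 4352 and 3816 fragments but a fold of only 1.42 and 1.84. Odd replicate 1 had 3870 fragments there. In lacZ replicate 2 the highest peak lay on chromosome 16 from 33958365 to 33959313, with 3078 fragments and a fold of 304. LacZ replicates 1 and 3 had 1566 and 683 fragments at the same site, with folds of 139 and 157, and the odd lists had no peak. Satellite repeats lie around human centromeres, and reads from copies that the genome build lacks can pile up there. How much of these pileups comes from such copies was not tested.

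In these lists, the shares of odd and lacZ peaks differed on many chromosomes. The shares of a list add up to the whole, so chromosomes are not independent of each other. The share of a list's peaks on a chromosome takes out the number of peaks, and for 15 of 23 chromosomes (65.2%) the shares of the 3 odd and 3 lacZ lists did not overlap. Odd shares were higher on 8 (34.8%), chromosomes 1, 10, 11, 16, 17, 19, 21 and 22. They were lower on 7 (30.4%), chromosomes 3, 5, 6, 7, 8, 12 and 13. Chromosome 7 overlapped when covered bases, peaks of a fold of at least 10 or lists of equal length were used, and chromosome 16 at equal length, so 14, 14 and 13 of the 15 held there. No single chromosome can pass a threshold of 0.05 in an exact permutation test of 3 against 3, and the lowest p adjusted over the 23 chromosomes was 0.153.

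The shifts were small against the size of the shares. Chromosome 22 held 1.56%, 1.63% and 1.40% of odd and 1.38%, 1.36% and 1.24% of lacZ peaks, a ratio of group means of 1.15. Chromosome 19 held 2.46%, 2.50% and 2.24% against 2.16%, 2.12% and 2.01%, a ratio of 1.14. On both, the lowest odd list stood just above the highest lacZ list.

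Chromosome 17 had a ratio of 1.11, chromosome 16 one of 1.09 and chromosome 21 one of 1.05. At the other end, chromosome 13 held 3.37%, 3.27% and 3.34% of odd and 3.79%, 3.64% and 3.76% of lacZ peaks, a ratio of 0.892. Chromosome 12 had a ratio of 0.913 and chromosome 3 one of 0.931. Chromosomes 4 and 18 overlapped, with ratios of 0.958 and 0.979, and so did chromosome X at 1.11. There lacZ replicate 2, with 3.19%, stood among odd lists that reached up to 3.59%. Genes and base composition were not used here, so neither was set against these shares.

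Per length, odd peaks were densest on chromosome 20 and sparsest on chromosome X. Over the span from the first to the last peak, the odd lists averaged 43.1 peaks per Mb on chromosome 20, 41.7 on chromosome 22 and 20.6 on chromosome X. LacZ peaks had the same extremes, with 22.8 per Mb on chromosome 20 and 10.6 on chromosome X. Chromosome 20 did not separate the sets by share, at 2.95%, 2.87% and 2.67% of odd and 2.70%, 2.59% and 2.62% of lacZ peaks.

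**Figure D2:**
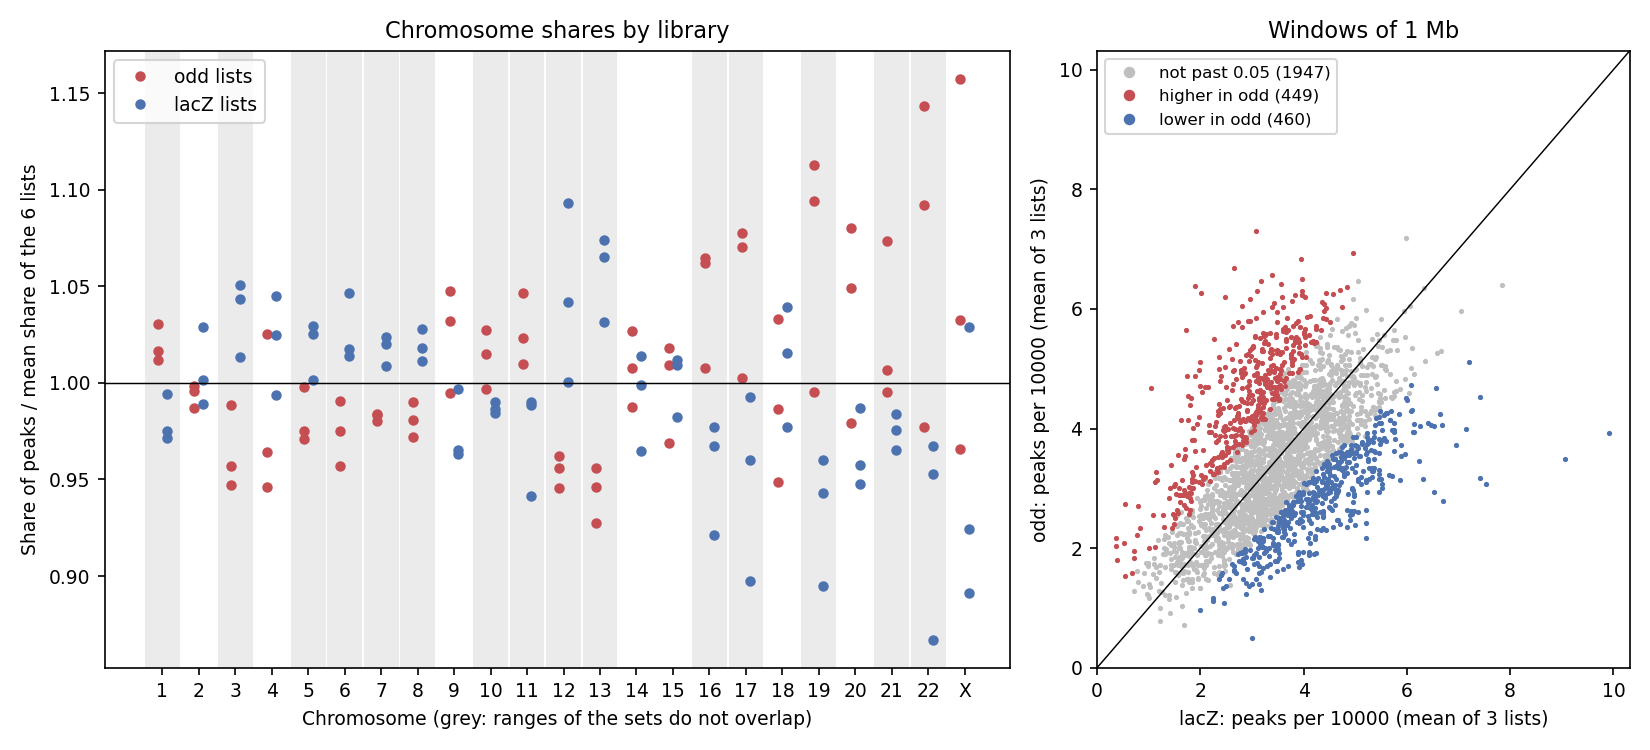
Left, each list's share of peaks on a chromosome over the mean share of the 6 lists (odd red, lacZ blue, 1 point a list; grey marks the 15 chromosomes without overlap). Right, peaks per 10000 peaks of the list in each of 2856 windows of 1 Mb, as the mean of 3 odd against the mean of 3 lacZ lists, with the line of equality; 449 windows were higher and 460 lower in odd lists.

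At a finer scale, about 1 window in 3 differed between the sets. Of 2856 windows of 1 Mb, 909 (31.8%) passed an adjusted p of 0.05 by limma on log2 of the peaks per 10000 peaks of the list plus 0.5. Peak density was higher in odd lists in 449 (15.7%) and lower in 460 (16.1%), and 1260 had an unadjusted p under 0.05. The median log2 difference was 0.55 in the higher and -0.52 in the lower windows, and 37 and 10 of them passed 1 in size. In 437 of the 449 and 446 of the 460 the ranges of the 3 odd and 3 lacZ lists did not overlap. The windows were called on these same values, so this follows largely from the call and adds no support. The share without overlap among all 2856 windows was not counted. Neighbouring windows are not independent of each other.

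These counts moved with the library left out and the peaks used. They were lower without odd replicate 2 (255 higher and 255 lower windows), odd replicate 1 (261 and 254), odd replicate 3 (298 and 318) or lacZ replicate 1 (310 and 278). They were higher without lacZ replicate 2 (546 and 517) or lacZ replicate 3 (464 and 475). With every list held to the 26460 peaks of the shortest, by −log10 p, an alternative chosen after the data were seen, 727 were higher and 807 lower, of which 694 were among the 909, and 854 of the 909 kept their sign. In the counts by position, 30.9% of the 191 windows within 5 Mb of a chromosome end were higher in odd lists and 9.95% lower, against 14.6% and 16.5% of the 2665 windows farther in. By chromosome, 13 of 36 windows were higher and 2 lower on chromosome 22, and 18 of 57 higher and 6 lower on chromosome 19. On chromosome 12 the order was the other way, with 14 of 131 higher and 32 lower, as on chromosome 3, with 18 of 196 higher and 42 lower. Windows did not always follow the shares. Chromosomes 10 and 21, higher in odd lists by share, had 23 higher and 24 lower of 133, and 4 higher and 7 lower of 37. Chromosome 20, which overlapped by share, had 16 of 61 higher and 6 lower.

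At the pseudocount of 0.5, the 5 windows with the largest differences toward odd probes were on chromosomes X, 9 and 1. On chromosome X from 49000001 to 50000000 the odd lists held 34, 49 and 50 peaks and the lacZ lists 4, 14 and 2. In peaks per 10000 this was 5.13, 4.62 and 4.27 against 0.859, 1.54 and 0.756, a log2 difference of 1.77 ± 0.19 (SE; limma adjusted p = 7.87e-05). All 3 odd lists stood far above all 3 lacZ lists. On chromosome 1 from 2000001 to 3000000, near the end of the short arm, the lists held 40, 75 and 71 odd and 5, 28 and 4 lacZ peaks, a log2 difference of 1.61 ± 0.21 (limma adjusted p = 0.000176).

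The others rested on few lacZ peaks. Chromosome X from 17000001 to 18000000 had 14, 32 and 36 odd against 1, 13 and 0 lacZ peaks, a log2 difference of 1.86 ± 0.38 (limma adjusted p = 0.00217). Chromosome 9 from 39000001 to 40000000, on the short arm, had 13, 24 and 27 against 1, 8 and 0, a difference of 1.76 ± 0.35. The next window of that chromosome, from 40000001 to 41000000, had 9, 25 and 28 against 2, 6 and 0, a difference of 1.61 ± 0.35. The size of these 3 differences rested on the pseudocount, with 2.94, 2.86 and 2.60 at 0.1 and 0.93, 0.84 and 0.77 at 2. At 2 they were below the other pair, which each had 1.14. None of the 3 was tested at equal length, nor the pair on chromosome 9 among peaks of a fold of at least 10, where they fell under the filter on low windows.

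The 5 windows with the largest differences toward lacZ probes were on chromosomes 18, 8, 13, 7 and 1. On chromosome 18 from 18000001 to 19000000, beside the centromere, the odd lists held 4, 5 and 5 peaks and the lacZ lists 14, 27 and 8, or 0.603, 0.472 and 0.427 against 3.01, 2.97 and 3.02 per 10000. The log2 difference was -1.81 ± 0.22 (SE; limma adjusted p = 7.87e-05), and the lists of each set were close to one another. At a pseudocount of 2 it was -1.0. On chromosome 8 from 86000001 to 87000000 the values were 3.01, 3.68 and 3.76 against 8.16, 6.94 and 12.1 per 10000, a difference of -1.23 ± 0.16. It was -1.85 among peaks of a fold of at least 10 and -2.24 at equal length. Whether the peaks of this window are separate sites was not tested.

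On chromosome 13 from 112000001 to 113000000, near the end of the long arm, the odd lists had 3.77, 4.34 and 3.67 and the lacZ lists 10.7, 6.17 and 12.8 per 10000, a difference of -1.18 ± 0.19. The remaining pair were chromosome 7 from 61000001 to 62000000, beside the centromere, with -1.12 ± 0.17, and chromosome 1 from 246000001 to 247000000, near the end of the long arm, with -1.12 ± 0.13. At equal length the latter was -0.73 (limma adjusted p = 0.0186). In peaks per 10000, no odd list reached any lacZ list in these 5 windows. In plain counts this held on chromosome 18 alone. In the other windows odd replicates 2 and 3 held more peaks than lacZ replicate 3, the shortest list. On chromosome 8, for example, they held 39 and 44 against 32.

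Single regions were then compared by presence. Peaks of the 6 lists that shared at least 1 base merged into 228116 regions, with a median length of 374 bases. All 3 odd lists and no lacZ list had a peak in 56215 of them (24.6%), a group called odd-recurrent here. In 22523 (9.87%) it was the reverse, called lacZ-recurrent. In 708 (0.31%) all 6 lists had a peak, and 4597 (2.02%) had at least 1 list of each set. The presence rule makes these groups, so the counts are a description, and absence means only that no peak was called.

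Just outside the rule lay 31852 regions with 2 odd lists and no lacZ list, and 992 with 3 odd lists and 1 lacZ list. On the other side, 20718 regions had 2 lacZ lists and no odd list, and 418 had 3 lacZ lists and 1 odd list. Regions seen once made up much of the total, 46288 with 1 odd list alone and 45923 with 1 lacZ list alone.

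**Figure D3:**
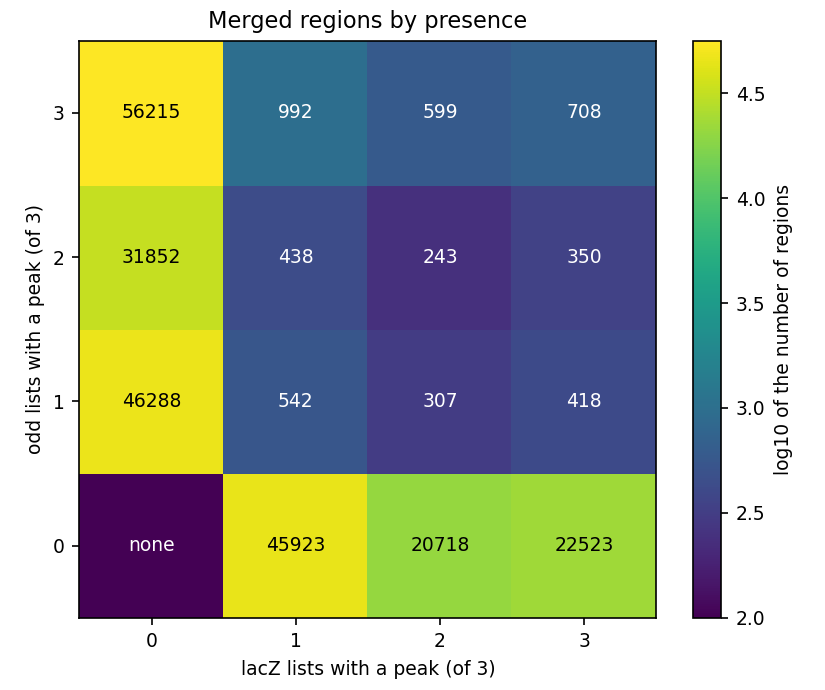
Number of merged regions by how many of 3 odd lists (vertical) and how many of 3 lacZ lists (horizontal) had a peak; colour is the log10 of the number. The counts stand along the edges, with 56215 regions in 3 odd and 0 lacZ lists, and cells with both sets hold 243 to 992.

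The excess of odd-recurrent over lacZ-recurrent regions, 2.50 to 1, moved with the length of the lists. With every list held to 26460 peaks the counts were 20440 and 18959, a ratio of 1.08. Without lacZ replicate 3, the shortest list, lacZ-recurrent regions numbered 41418 and the ratio was 1.36. With peaks of a fold of at least 10 alone, the counts were 31512 and 15488, a ratio of 2.03. It was 3.68 without odd replicate 1, and 2.31 to 2.61 without each of the remaining libraries. At equal length the lacZ set gave nearly as many recurrent regions of its own as the odd set. That cut fell at unlike strengths, however. The lowest −log10 p kept was 29.7, 75.9 and 49.5 in odd and 18.7, 53.8 and 3.51 in lacZ replicates 1 to 3.

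Recurrence within a set depended on which list was asked. In odd replicate 1, 88.4% of peaks lay in regions with all 3 odd lists, against 55.4% in replicate 2 and 50.1% in replicate 3. In the lacZ set the share was 51.7%, 26.5% and 90.9% in replicates 1 to 3. The shortest list of each set had the highest share. Peaks that no other list of the set had were weaker and shorter. Their median fold was 4.61, 6.36 and 5.86 in odd replicates 1 to 3, against 11.3, 21.6 and 18.2 for peaks with all 3 lists, and their median length 285, 252 and 264 bases against 431, 507 and 527.

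Only a small part of odd peaks met a lacZ peak. In odd replicates 1 to 3, 3.84%, 3.54% and 3.39% of peaks were in regions that any lacZ list had too, and 1.19%, 1.12% and 1.10% in a region with all 3. Of lacZ peaks, 5.60%, 4.98% and 6.10% were in regions that any odd list had too, and 2.80%, 2.48% and 2.92% in a region with all 3. These shares moved little among the 3 lists of a set, although the lists differ in length. The share that peaks of these numbers and lengths would meet by placement alone was not computed. Nor was the number of regions with all lists that placement alone would give.

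Odd-recurrent regions were compact, and their summits met closely. They were 253 to 6869 bases long with a median of 587, covered 33.7 Mb, and in 95.1% the 3 summits lay within 100 bases of one another, with a median spread of 43 bases. LacZ-recurrent regions were much the same, with a median length of 685 bases, 94.7% within 100 bases and a median spread of 46 bases. In the odd-recurrent regions the median fold was 11.3, 21.6 and 18.2 and the median pileup 29, 57 and 36 fragments in odd replicates 1 to 3. The lacZ-recurrent regions had a median fold of 17.9, 43.3 and 13.6 and a median pileup of 41, 90 and 24 in lacZ replicates 1 to 3.

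The order of the odd-recurrent regions by fold was shared between the odd lists. Spearman's rho over the 56215 regions was 0.85 to 0.86 for the 3 pairs of odd lists, and 0.85 to 0.90 for lacZ lists over theirs. This is a description across regions that were chosen for having a peak in each list. A region of one kind had its nearest neighbour of the same kind at a median of 16.7 kb for odd-recurrent and 42.9 kb for lacZ-recurrent regions. From an odd-recurrent region the nearest lacZ-recurrent one lay at a median of 42.5 kb, and from a lacZ-recurrent region the nearest odd-recurrent one at 17.8 kb. The distances thus followed how dense the regions of the kind sought were.

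The spread of recurrent regions over chromosomes followed that of all peaks. There were 3.04 odd-recurrent for each lacZ-recurrent region on chromosome 22, 2.99 on chromosome 19 and 2.99 on chromosome 17, against 2.50 over all chromosomes. The lowest ratio was 2.17 on chromosome 12, followed by 2.26 on chromosome 3 and 2.29 on chromosome 13. Odd-recurrent regions were densest on chromosome 20, at 25.8 per Mb, and sparsest on chromosome X, at 11.1 per Mb.

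The strongest odd-recurrent region stood first by fold in all 3 odd lists. It lies on chromosome 6 from 1926920 to 1928018, with the authors' fold at 655, 1149 and 1036 and 1407, 2653 and 1767 fragments at summits within 24 bases. The next, on chromosome 5 from 8079080 to 8080594, had folds of 264, 644 and 714 and ranked 3, 5 and 2. Folds of different lists are given side by side, since the depth of the lists is unknown.

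A stretch of chromosome 10, 92937682 to 92938578, had folds of 258, 571 and 342 and summits within 4 bases. On chromosome 14 a region from 19931670 to 19932646, close to the centromere, had 235, 572 and 316, with summits within 2 bases. Chromosome 1 had one at 93611963 to 93612905, with 227, 524 and 299. Each of these was a single peak in all 3 odd lists.

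Places 6 to 10 had folds between 160 and 645. Chromosome 7 held one at 92428689 to 92429977 (204, 383 and 288), chromosome 21 one at 40950265 to 40951224 (160, 429 and 265) and chromosome 13 one at 19188278 to 19189875 (212, 466 and 219). The last pair were on chromosome 14 from 19657634 to 19660233 (219, 645 and 208) and chromosome 5 from 132492349 to 132493267 (167, 392 and 260). On chromosome 14 the summit was at the same base in all 3 lists. The 10 regions lay on 8 chromosomes and were 897 to 2600 bases long. In odd replicate 3 the chromosome 13 region and this chromosome 14 region ranked only 50 and 63 by fold. Both lay close to the first peak of any list on their chromosome, which began at 19025255 on chromosome 13 and 19000113 on chromosome 14. The other chromosome 14 region, from 19931670, lay near that start too.

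The longest odd-recurrent regions were not the strongest. The region on chromosome 4 from 189424108 to 189430976 spans 6869 bases near the end of the long arm, and each odd list had it as 1 peak, of 6689, 6779 and 6869 bases. Its fold was 49.6, 97.9 and 87.4, with summits within 5 bases. The second, on the same chromosome from 555520 to 559977 near the other end, was 4458 bases long, with folds of 43.2, 66.1 and 94.8. The third, on chromosome 7 from 1040268 to 1043929, was 3662 bases long with folds of 27.1, 44.9 and 45.2. Its summits were up to 1736 bases apart.

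**Figure D4:**
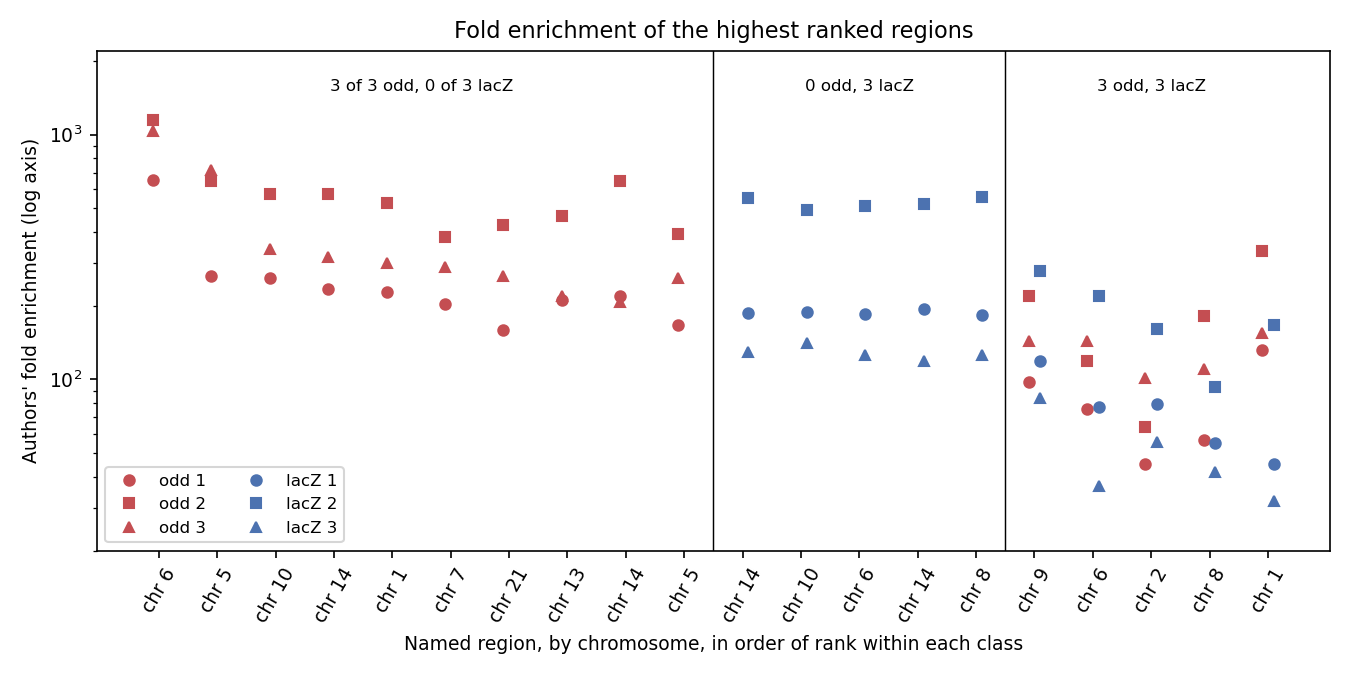
The authors' fold enrichment (log axis) in each list for the 10 highest ranked odd-recurrent regions, the 5 highest ranked lacZ-recurrent regions and the 5 highest ranked regions with all 6 lists (odd red, lacZ blue; circle, square and triangle for replicates 1, 2 and 3). The first odd-recurrent region reaches 1149 in odd replicate 2, and the regions of all 6 lists lie between 31.8 and 334.

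Control probes gave recurrent regions of their own. The highest ranked lacZ-recurrent region, on chromosome 14 from 70870301 to 70871225, had folds of 187, 552 and 129 in lacZ replicates 1 to 3. Next came chromosome 10 at 129069215 to 129070163 (188, 491 and 141), chromosome 6 at 38007222 to 38008146 (185, 513 and 126) and a second on chromosome 14, at 39295481 to 39296441 (194, 518 and 118). The fifth was on chromosome 8 from 54842028 to 54843007, with 183, 558 and 126. All 5 were between 925 and 980 bases long, with summits within 28 bases.

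In the 708 regions with all 6 lists, the sets seldom had their summits at the same place. The median distance between the odd and the lacZ summit was 316 bases, while the 3 summits of a set had a median spread of 43 bases in odd and 45 in lacZ lists. In 121 of the 708 (17.1%) the sets were within 100 bases of each other, against 94.6% and 94.4% for the 3 lists within the odd and within the lacZ set. These regions were longer than others, with a median of 976.5 bases, and merging by 1 base joins neighbours. The summit distance of peaks that merely touch was not computed for comparison. Some lay close together, in the chromosome 8 window from 86000001 to 87000000. Regions there from 86735386, 86738627 and 86741710 had the summits of the sets 340, 342 and 321 bases apart. Those from 86558390, 86763489, 86766564, 86818412 and 86923379 had them 335, 341, 338, 340 and 371 bases apart. How far these regions, or the peaks of that window, are separate sites was not tested. Where each list had to cover at least 50% of the region, 90 were left, and with 100 bases to either side of each summit in place of whole peaks there were 267.

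The order of the shared regions by fold was common to the lists of a set and not to both sets. Over the 708 regions, Spearman's rho of the fold was 0.88 for each of the 3 pairs of odd lists and 0.87 to 0.90 for pairs of lacZ lists. It lay between -0.010 and 0.027 for the pairs of an odd and a lacZ list. The points of each pair are the same regions, and this is a description with no test. In most of these regions the summits of the sets lay over 100 bases apart. The folds of the sets can therefore belong to neighbouring peaks joined by merging.

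**Figure D5:**
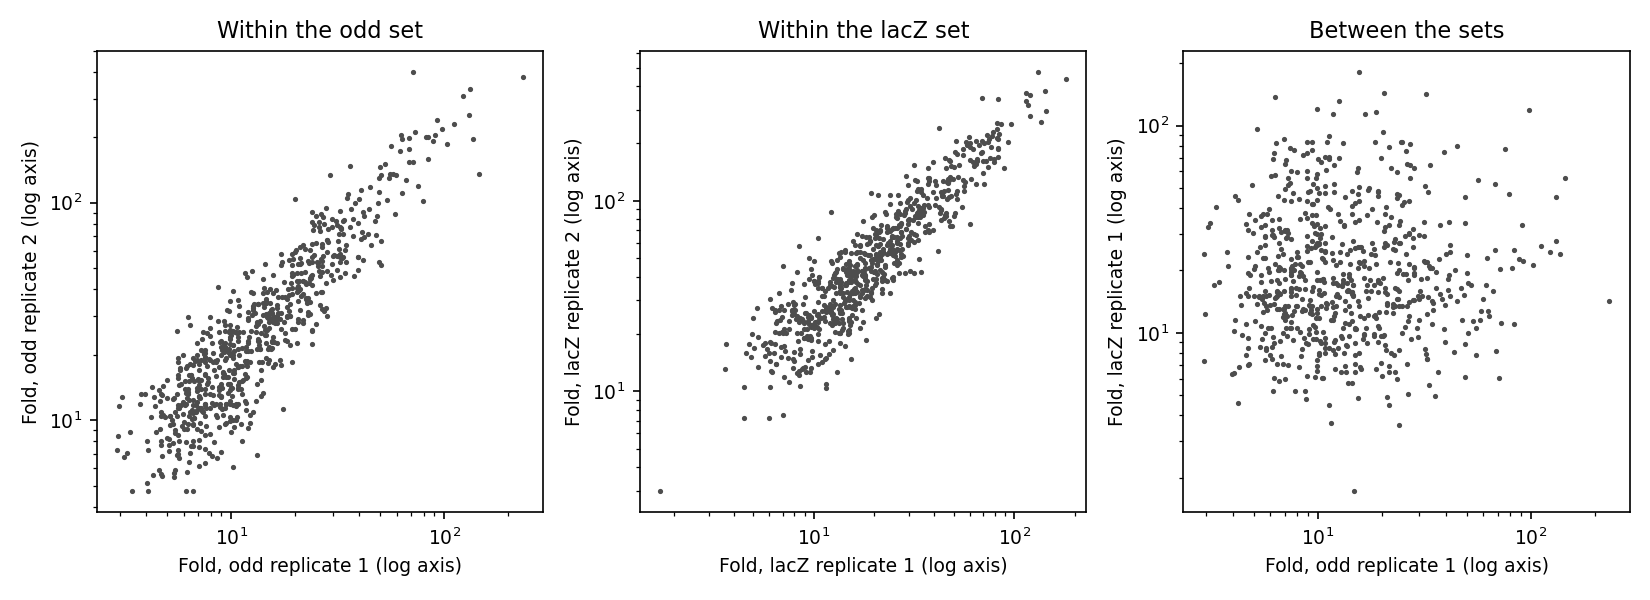
The authors' fold enrichment in the 708 regions with a peak in all 6 lists, 1 point a region, on log axes: odd replicate 1 against odd replicate 2, lacZ replicate 1 against lacZ replicate 2, and odd replicate 1 against lacZ replicate 1. Points follow a line within each set (rho 0.88 and 0.90) and form a cloud between the sets (rho 0.021). The folds of the sets in a region can belong to neighbouring peaks joined by merging.

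The highest ranked of these regions was on chromosome 9 from 132688771 to 132690047, where folds were 98.0, 219 and 144 in odd and 119, 279 and 84.0 in lacZ lists, with the summits of the sets 418 bases apart. The second, at 91152889 to 91154262 of chromosome 6, had 75.7, 119 and 144 in odd and 77.2, 218 and 36.8 in lacZ lists, 556 bases apart. Chromosome 2 had the third, at 101751518 to 101752952, with 45.3, 63.7 and 101 against 79.6, 160 and 55.7, 341 bases apart. In these 3, the sets had their summits at separate places.

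The other two were on chromosome 8 from 81833793 to 81835577, with folds of 56.5, 182 and 110 in odd and 54.8, 93.0 and 42.0 in lacZ lists, and on chromosome 1 from 153457160 to 153458894, with 132, 334 and 154 against 45.2, 167 and 31.8. Their summits lay 876 and 785 bases apart. In each of the 5, the summits of a set were within 79 bases of one another, so the distance between the sets was larger than the spread within either.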

How the data were processed

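Per the submitters' processing notes, FastQC and Bowtie2 were used, on build hg19. The program that called peaks, and its settings and control library, were not given in the sources used. The authors deposited 1 list per library, with length, summit and positions counted from 1, and per the file headers the columns follow the MACS2 layout: pileup is a signal, the fragment coverage at the summit, unscaled. The authors' −log10 p and q values and fold enrichment, a ratio to a background whose source is not stated, are per peak. The even and input samples were not used.

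Lists were read with Python 3.11.15 and pandas 2.3.3. Values of 1 per list were compared as log2 by exact permutation over 20 arrangements. Summits were counted in windows of 1 Mb, expressed per 10000 peaks of the list, kept at a mean of at least 1, and fitted as log2(value + 0.5) with limma 3.58.1 (R 4.3.3, eBayes with trend, Benjamini-Hochberg). Tested on simulated counts for this comparison in 2847 windows, the fit called 70.4% of windows changed 2-fold, 10.1% of those changed 1.5-fold and 1 of 2650 unchanged ones. The counts were independent Poisson draws around the mean share of each window, with no further spread between libraries. Real lists of a set may differ by more, so these rates cannot be carried over to the calls made here. Precision is limited by peaks per window and by 3 libraries a set; total reads are unknown. Named regions were the highest by mean percentile of fold within lists (10 odd-recurrent, 5 lacZ-recurrent, 5 in all lists), the 3 longest odd-recurrent ones, and the 5 windows with the largest change in each direction. Alternatives were stricter or equal-length lists, other merging, presence, pseudocount, filter, scaling, window and measure, a replicate block, and leaving out libraries. Members and rules were chosen with earlier results of these data known. The gene tables at hand follow GRCh38, so no gene was assigned and no sequence printed.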

Additional observations from a re-analysis of the deposited data

Results flagged for a closer look

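Beyond the chromosomes used, 59 other sequences of the build (chromosome Y left out) held peaks and were screened. On 1 of them, chr19_gl000209_random, which hg19 assigns to chromosome 19 without a place, every odd list held at least 5 peaks and stood above all lacZ lists in number and per 10000 peaks. No sequence met the reverse rule. The odd lists held 10, 13 and 15 peaks there, 12.7 ± 2.52 (SD, n = 3), and the lacZ lists 0, 4 and 0. Scaled to 10000 peaks, this was 1.5, 1.22 and 1.28 against 0, 0.439 and 0. With no minimum number of peaks, the scaled values of the sets did not overlap on 12 sequences toward odd and on 13 toward lacZ, so the screen as a whole leaned to neither set. No test was made.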

How the results depend on the processing

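The equal-length lists for peak length, chromosomes and windows were chosen after the data were seen. The other alternatives were planned. No read depth is known, and exact tests of 3 against 3 cannot go below 0.1, so p-values of single list values say nothing about stability. The log2 differences ran from 0.53 to 1.42 in peak number, 0.47 to 1.30 in covered bases and -0.24 to -0.10 in median length when each library was left out. Median pileup ran from -0.052 (without odd replicate 2) to 0.29, and was -0.19 over the lowest background. Under a replicate block, p by exact permutation was 0.25 for number, covered bases and length and 0.75 for pileup, where 8 arrangements allow 0.25. Over windows, deviations of same-numbered libraries correlated with r of 0.038, 0.010 and 0.012, and those of differently numbered ones with -0.053 to 0.026. The main comparison therefore did not pair the samples by number. This cannot show whether same-numbered libraries were processed together. The replicate block in limma gave 480 higher and 472 lower windows. Chromosomes without overlap numbered 14 to 19 under all alternatives, 18 at equal length. Ranges without overlap are easier to reach when a library is left out.

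Odd-recurrent regions fell to 31512 (fold of at least 10) and 20440 (equal length), and were 56225 to 82979 without each library. LacZ-recurrent regions were 22553 to 41418 without each library. Regions in all lists were 263 (fold of at least 10), 225 (equal length), 1224 (peaks up to 500 bases apart merged), 267 (summits with 100 bases to either side), 90 (50% covered) and 671 to 1247 without each library, highest without lacZ replicate 3. Windows higher and lower were 714 and 726 by covered bases, 100 and 112 in windows of 5 Mb, of which 596 were tested, 727 and 807 at equal length, and 255 to 546 and 254 to 517 without each library. Fewer peaks, windows or libraries enter several of these by construction. For the rest, the cause was not tested.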
